A study of Mus musculus with 24 samples.

Results

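The genes of glycolysis and of the response to low oxygen were followed in activated immune cells with and without miR-155. The set holds 36 gene symbols out of the 20673 counted in every library, chosen by name and not by any measured value. They are Hif1a and its regulators Egln1, Egln3 and Vhl, the glucose transporters Slc2a1 and Slc2a3, 18 genes of the glycolytic steps from hexokinase to pyruvate kinase, 5 genes that set the fate of pyruvate and lactate, and 7 other genes induced by hypoxia. Of the 36 symbols, 35 had counts. Eno1, the main enolase, was listed at 0 in all 24 libraries, and so was tested in no comparison. It stays among the genes whose sequences were searched. Enolase is used by every cell, and the symbol Eno1b, which names a near-identical copy of Eno1, was itself listed at 0 in 18 libraries, so the level of enolase-1 is uncertain here.

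Glycolysis splits glucose into pyruvate and yields ATP without oxygen, and lactate dehydrogenase turns the pyruvate into lactate, which monocarboxylate transporters export. HIF-1α, the protein of Hif1a, is hydroxylated by the prolyl hydroxylases Egln1 and Egln3 when oxygen is present, bound by the ubiquitin ligase subunit Vhl and degraded. When it is stable it binds the core motif ACGTG or GCGTG and induces most genes of this set, including Pdk1, whose product holds pyruvate back from the mitochondria. Activated lymphocytes, dendritic cells and macrophages are known to raise glycolysis, and Hif1a is a reported target of miR-155, a microRNA that is itself induced by activation.

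All mice were C57BL/6J, either wild type (WT) or miR-155 KO, and each of the 8 groups held 3 libraries of total RNA. B cells came from the spleen after removal of CD43+ cells and received 25 ug/ml LPS, a bacterial lipopolysaccharide, with 6.5 ng/ml IL-4. Dendritic cells were CD11c+ spleen cells from mice of both genotypes that had carried subcutaneous B16 melanoma cells expressing Flt3 ligand, and they received 100 ng/ml LPS with 20 ng/ml of the growth factor GM-CSF. Macrophages were drawn from the peritoneum by thioglycollate and received 100 ng/ml LPS. CD4+CD25-CD44- T cells, taken from spleen and lymph nodes, were activated with beads against CD3 and CD28. The labels name no cell type or promoter that limits the deletion, and no time of activation. Each cell type was isolated and stimulated in its own way. Differences between cell types, in level or in KO effect, therefore cannot be told apart from differences of source, stimulus or time. The design text calls the 3 libraries of a group sequencing replicates. Since nothing says that these came from separate animals or cultures, p-values measure the spread from library to library alone, and that spread may be technical. miR-155 itself was not analysed here, and genotypes rest on the labels.

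The mature strand miR-155-5p pairs with messenger RNAs through its seed, bases 2 to 8, shown in capitals. The sequence lies on the plus strand at chr16:84714143-84714165 (GRCm38.p6, from RefSeq).

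mmu-miR-155-5p: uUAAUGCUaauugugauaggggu

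Of the 36 genes, 6 (16.7%) held an 8mer or 7mer match to this seed in their longest annotated 3′ UTR, against 12.8% of the 19461 genes of the files with such a UTR. Sites of different strength are named by their length. The searched letters were AGCATTAA (8mer), AGCATTA (7mer-m8) and GCATTAA (7mer-A1), on the sense strand, and each longer match was counted once by its longest form. The 7mer-m8 pairs with the whole seed. No gene of the set had an 8mer. The 7mer-m8 sites were in Hif1a, in Slc16a1, which encodes the lactate transporter MCT1, and in Pdk1. Pfkp, Aldoc and Mxi1 held a 7mer-A1, and Slc2a3 and P4ha1 held the 6mer GCATTA alone. Each of the 3 full seed matches is shown with flanking bases of the 3′ UTR, the match in capitals, because its gene rose in the KO in at least 1 cell type. The coordinates are those of GRCm38, while the reads were aligned to mm9.

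Hif1a, chr12:73946739-73946745: aagtgagtaattttagaAGCATTAtt
Slc16a1, chr3:104656267-104656273: gactaaagtatttttctAGCATTAta
Pdk1, chr2:71901109-71901115: agcctggtgcaagctaaAGCATTAgc

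The Hif1a match begins at base 1036 of a 3′ UTR of 1827 bases, the Slc16a1 match at base 545 of 2740 and the Pdk1 match at base 985 of 3734. A match is a description of the sequence and no measure of binding.

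Gene counts per library ran from 7428821 to 14219823, the lowest in a dendritic cell library. Levels are given as CPM, counts scaled to 1000000 per library, after TMM scaling over all 24 libraries. Marker sums followed the labels, with the B cell list at 3487 to 3958 CPM in B cells and at most 164 CPM elsewhere, and the T cell list at 1061 to 1146 CPM in CD4 T cells and at most 239 CPM elsewhere. The conventional dendritic cell list stood at 11150 to 15338 CPM in dendritic cells and at most 436 CPM elsewhere, and the macrophage list at 12492 to 14695 CPM in macrophages and at most 195 CPM elsewhere. B16 melanoma markers summed to at most 2.25 CPM in any group, with Mlana at 0 in the dendritic cells. Of the other lists, neutrophil markers reached 838 CPM in macrophages, nearly all Csf3r, and 12.7 CPM elsewhere, NK cell markers at most 21.1 CPM and erythroid markers at most 1.3 CPM. Plasma cell markers, led by Xbp1 in most groups, ran from 129 to 719.7 CPM and plasmacytoid dendritic cell markers, led by Bst2, from 66.2 to 459 CPM over all groups. Gapdh, Aldoa, Pgk1, Pkm, Ldha, Tpi1 and Pgam1 have processed copies elsewhere in the genome, and since the handling of reads shared with copies is not given in the sources used here, their levels carry that uncertainty.

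In WT cells the set was highest in macrophages and CD4 T cells and lowest in dendritic cells and B cells. By TMM-scaled CPM, macrophages had the highest mean of 21 of the 35 genes with counts, CD4 T cells of 9, dendritic cells of 5 and B cells of none. Dendritic cells had the lowest mean of 20 genes, B cells of 12, T cells of 2 and macrophages of 1. Counts of 17 enzymes from hexokinase to lactate dehydrogenase made up 1.69 ± 0.125% (SD, n = 3) of all gene counts in WT macrophages and 1.74 ± 0.0927% in WT T cells, whose libraries overlapped (1.84, 1.64 and 1.6% against 1.68, 1.70 and 1.85%). The same sum was 0.689 ± 0.0141% in WT B cells and 0.339 ± 0.016% in WT dendritic cells. These sums are shares of unscaled counts. Eno1 is 1 of the 17 enzymes and was listed at 0, so the sums leave out the main enolase. The TMM factors behind the CPM were 0.75 to 0.786 in WT macrophages and 1.19 to 1.204 in WT T cells, and a lower factor raises CPM. The order of macrophages and T cells can therefore depend on the scale. In bulk samples a gene used by fewer cells and a lower level per cell cannot be told apart.

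**Figure D1:**
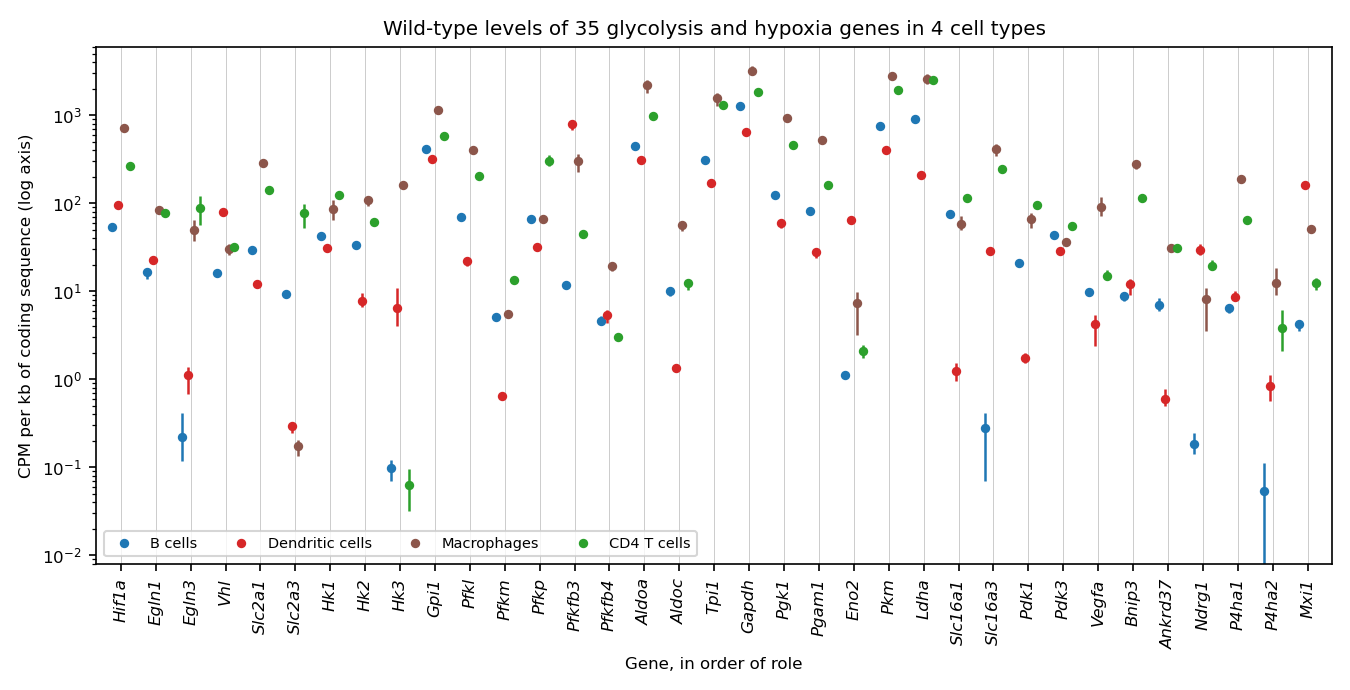
Mean WT level of each gene in CPM per kb of coding sequence (log axis), with vertical lines from the lowest to the highest of 3 libraries, in B cells (blue), dendritic cells (red), macrophages (brown) and CD4 T cells (green). Macrophages are highest for 21 of 35 genes, while Pfkfb3, Eno2, Mxi1, Ndrg1 and Vhl are highest in dendritic cells; 1 of the 3 B cell libraries had no count of P4ha2, so its line runs off the axis.

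Hif1a stood at 1796 ± 60.6 CPM (SD, n = 3) in WT macrophages, 661 ± 16.1 in T cells, 243 ± 13.5 in dendritic cells and 135 ± 5.68 in B cells, and no neighbours in this order overlapped. Egln3, a prolyl hydroxylase that HIF itself induces, was at 64.4 ± 23.2 CPM in T cells and 36.2 ± 10.3 in macrophages, which overlapped, and at 0.809 ± 0.284 and 0.159 ± 0.118 CPM in dendritic cells and B cells. Vhl took a different order, with 43.4 ± 2.71 CPM in dendritic cells, 17.3 ± 0.808 in T cells, 16.5 ± 2.32 in macrophages and 8.8 ± 0.461 in B cells, and only the T cells and macrophages overlapped.

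The glucose transporters divided between cell types. Slc2a1 (GLUT1) followed the general order, with 428 ± 30.7 CPM in macrophages, 212 ± 16.3 in T cells, 44.1 ± 1.31 in B cells and 17.9 ± 1.67 in dendritic cells. Slc2a3 (GLUT3), the high-affinity neuronal and lymphocyte form, was a lymphocyte gene here, at 117 ± 34.5 CPM in T cells and 14.1 ± 0.612 in B cells against 0.444 ± 0.0606 and 0.266 ± 0.0554 in dendritic cells and macrophages. Among lactate exporters, Slc16a3 (MCT4) stood at 593 ± 90.9 CPM in macrophages, 344 ± 34.2 in T cells, 40.8 ± 4.03 in dendritic cells and 0.39 ± 0.258 in B cells. Slc16a1 was at 169.8 ± 3.28 CPM in T cells, 113 ± 1.42 in B cells, 86.6 ± 17.6 in macrophages and 1.82 ± 0.441 in dendritic cells. B cells thus carried almost no Slc16a3, and dendritic cells almost no Slc16a1.

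Dendritic cells stood out by Pfkfb3, the enzyme that makes fructose 2,6-bisphosphate and so speeds phosphofructokinase. It was at 1376 ± 179 CPM in WT dendritic cells, 519.8 ± 121 in macrophages, 77.9 ± 5.44 in T cells and 20.6 ± 0.688 in B cells, with no overlap between neighbours. Eno2, the neuronal enolase, was at 84 ± 2.93 CPM in dendritic cells and 9.55 ± 4.7 in macrophages. Mxi1, an antagonist of Myc, was at 164 ± 10 CPM in dendritic cells and 51.8 ± 4.56 in macrophages. Ndrg1 followed with 34.7 ± 5.7 CPM in dendritic cells and 23 ± 3.33 in T cells. Per kb of coding sequence, WT dendritic cells held 797 CPM of Pfkfb3 beside 648 CPM of Gapdh and 212 CPM of Ldha, while macrophages held 301, 3239 and 2597 CPM. Reads of untranslated regions may be counted too, and 3′ UTRs differ in length (3063 bases for Pfkfb3, 179 for Gapdh and 486 for Ldha). The order of these genes within a cell type therefore rests on the choice of coding length.

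Pairs of WT cell types were tested over 12 WT libraries with edgeR's quasi-likelihood test, calling a gene at a Benjamini-Hochberg adjusted p under 0.05 and at least a 2-fold difference. Against macrophages, 29 of 35 genes were lower in B cells and 1 was higher (55.8% of all 11863 genes tested were called in this pair), and 28 were lower in dendritic cells and 5 higher (48.4% of all genes called). Against T cells, 23 genes were lower in B cells and none higher (23% of all genes called), and 26 were lower in dendritic cells and 5 higher (53.6%). B cells and dendritic cells differed in 14 genes higher in B cells and 9 higher in dendritic cells (51.9%), and macrophages and T cells in 15 higher in macrophages and 4 higher in T cells (55%). The median of log2 B minus dendritic cell was 0.60 over the set and -0.08 over all genes. That of B minus macrophage was -2.37 against -0.04, of B minus T -1.56 against 0.02, and of dendritic cell minus macrophage -3.19 against -0.01. Dendritic cell minus T gave -2.52 against 0.04, and macrophage minus T 0.82 against 0.03.

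Some single genes, each the largest difference of its role in a pair, stood as follows. Slc2a1 was 23.9-fold higher in macrophages than in dendritic cells (log2 difference of dendritic cell minus macrophage -4.58 ± 0.11 SE, adjusted p = 1.1e-11 by edgeR), and Pgam1, a lower glycolytic enzyme, was 18.5-fold higher (-4.21 ± 0.11). Eno2 was 57.6-fold higher in dendritic cells than in B cells (B minus dendritic cell -5.85 ± 0.34, adjusted p = 4.6e-09). Pfkfb3 was 67.1-fold higher there than in B cells (-6.07 ± 0.20, adjusted p = 2.5e-11). Pfkp, the platelet-type phosphofructokinase, was 4.6-fold higher in T cells than in B cells (B minus T -2.20 ± 0.12, adjusted p = 9.7e-09), and Hif1a was 2.73-fold higher in macrophages than in T cells (1.45 ± 0.10, adjusted p = 1.3e-08).

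The isozymes that carry a step differed between the cell types, each with its own stimulus. Shares were taken from counts per kb of coding sequence within each family. They depend on the length used, since 3′ UTRs within a family can differ (3734 bases for Pdk1 and 618 for Pdk3). Comparisons of a share between groups use the same length throughout. Hk3, a hexokinase of myeloid cells, made up 45.9 ± 3.67% (SD, n = 3) of hexokinase in WT macrophages and 13.7 ± 6.44% in WT dendritic cells, and 0.131% and 0.0339% in B cells and T cells. Hk1 was the main form in T cells (66.7 ± 0.882%) and dendritic cells (69.1 ± 7.76%), and B cells held 55.7 ± 0.959% Hk1 and 44.2 ± 0.925% Hk2, the inducible form. Of phosphofructokinase, the liver form Pfkl made up 85.0 ± 0.76% in macrophages, 49.4 ± 2.82% in B cells, 40.3 ± 2.89% in dendritic cells and 39.4 ± 2.71% in T cells, and most of the rest was Pfkp. Slc16a1 took 99.6 ± 0.24% of its pair in B cells and 4.12 ± 1.23% in dendritic cells. Pdk1 took 64.2 ± 6.03% of its pair with Pdk3 in macrophages, 63.3 ± 2.54% in T cells, 32.5 ± 0.769% in B cells and 5.82 ± 0.372% in dendritic cells. Pfkfb4 reached 27.9 ± 1.92% of its pair with Pfkfb3 in B cells and 0.67 ± 0.0514% in dendritic cells. Aldoa took at least 97.5% of aldolase in each WT cell type.

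**Figure D2:**
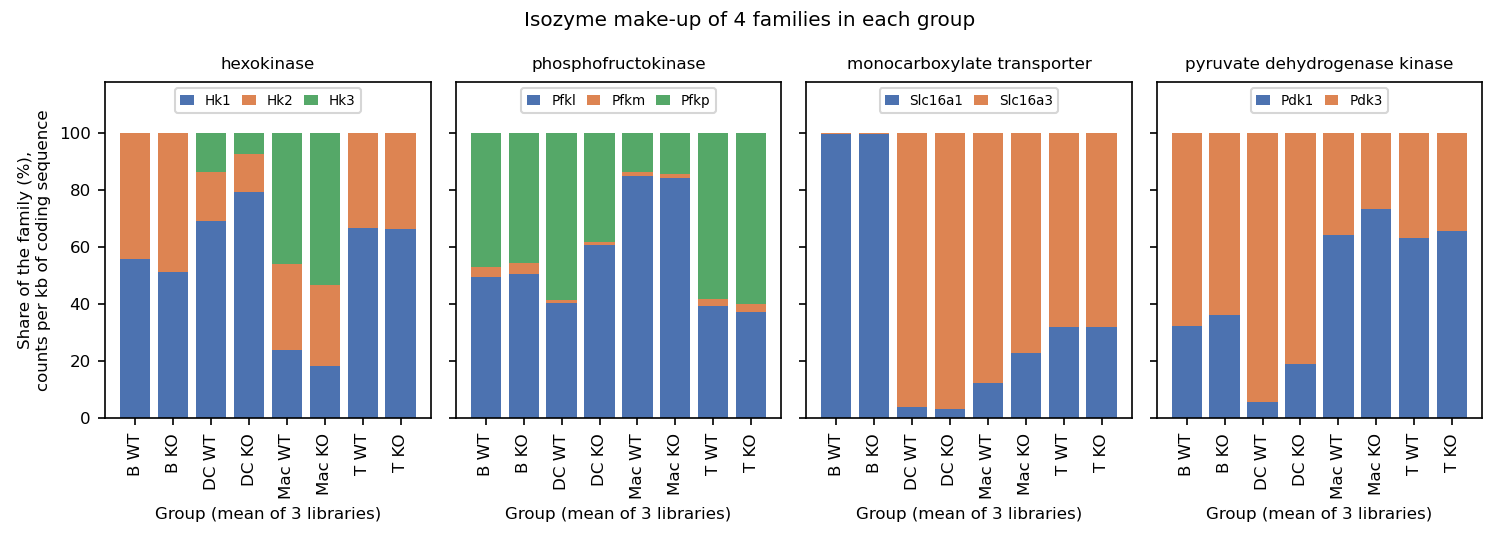
Share of each isozyme within 4 families, in percent of counts per kb of coding sequence, as the mean of 3 libraries in each of 8 groups (WT and KO of B cells, dendritic cells, macrophages and T cells). Hk3 is seen in macrophages and dendritic cells, Slc16a1 makes up nearly all of its pair in B cells, and in dendritic cells Pfkl stands at 40.3% in WT and 60.7% in KO and Pdk1 at 5.82% and 19.0%.

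Whether the loss of miR-155 changed these genes was tested in each cell type with the 3 KO against the 3 WT libraries, by edgeR's quasi-likelihood test with Benjamini-Hochberg adjustment over all genes tested. Log2 fold changes are KO minus WT with their standard error (SE). A call is one of this fit unless another is named. In B cells Hif1a, Slc16a1 and Vegfa rose and Hk1 fell, 3 up and 1 down of 30 tested genes, where 2.09% of all 10151 genes tested were called up and 1.11% down. In dendritic cells Pgk1, Pdk1, Bnip3, Ndrg1 and P4ha2 rose and Pfkp fell, 5 up and 1 down of 33, where 12.2% of all 10536 genes were called up and 9.42% down. In CD4 T cells Hif1a rose and no gene of the set fell, 1 of 34 (1.35% up and 0.798% down of 10396 genes). In macrophages edgeR called 0 of 34 in either direction, where it called 0.55% of 10730 genes up and 0.336% down. At an unadjusted p under 0.05 the macrophages had 2 genes above and 10 below. Dendritic cells had 16 above and 3 below, T cells 10 and 2, and B cells 5 and 1. The share of all genes at that unadjusted threshold is not given here. DESeq2 called 4 down and 0 up in macrophages (Gpi1, Slc16a3, Vegfa and Bnip3). Over all genes it also called more in macrophages, in each direction, than edgeR did. The share called up in dendritic cells, 5 of 33, is near the share of all genes called there.

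**Figure D3:**
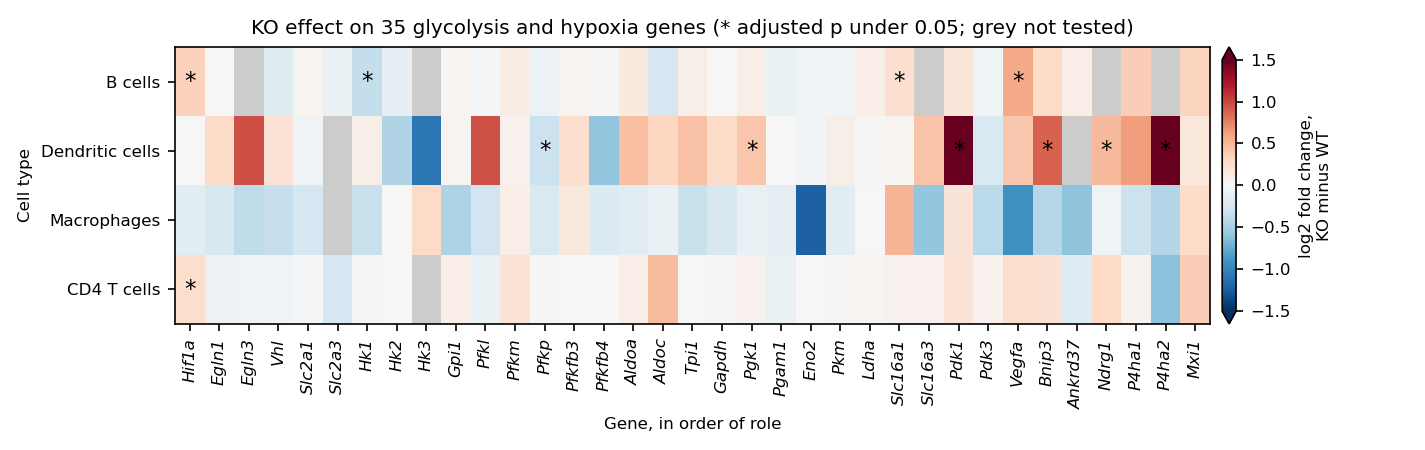
Log2 fold change (KO minus WT) of 35 genes, in order of role, in each of 4 cell types, with red for higher and blue for lower in the KO. Asterisks mark an adjusted p under 0.05 and grey cells were not tested; colours saturate at 1.5, so Pdk1 (1.77) and P4ha2 (1.79) in dendritic cells share the darkest red, and most macrophage cells are blue.

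Most genes of the set stood above WT in dendritic cells and below WT in macrophages. In dendritic cells 25 of 33 tested genes were above 0 and the median log2 fold change was 0.22, against -0.011 over all genes, of which 48.5% were above 0. In macrophages 7 of 34 were above 0 and the median was -0.24, against -0.02 over all genes, of which 47.1% were above 0. The medians were 0.03 in B cells and 0.02 in T cells, with 19 of 30 and 23 of 34 above 0. KO libraries lay all above the WT libraries for 14 of the 33 genes in dendritic cells and all below for 3 (21.9% and 20.3% of all genes with a mean of at least 20 counts). In macrophages they lay all above for 3 of 34 and all below for 17 (11.8% and 12.8% of all genes). B cells had 7 above and 4 below of 30 (11.5% and 10.6%), and T cells 5 above and 2 below of 34 (11.9% and 11%).

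Among the dendritic cell libraries KO replicate 1 was the highest KO library for 25 of the 33 genes, against 33.3% of all genes, and its median log2 ratio to the WT mean was 0.36, beside 0.08 and 0.15 in KO replicates 2 and 3. Without it the median fold change was 0.13, 19 of 33 genes were above 0, and the calls were Pfkl, Pdk1 and P4ha2 up and Hk2 and Pfkp down. Over all 10665 genes that fit called 897 up and 567 down. Without WT replicate 3 the calls were Pfkl, Pdk1 and P4ha2 up and none down (882 up and 601 down of all 10649 genes). Without either KO replicate 2 or KO replicate 3 they were 5 up and none down. Over all genes these 2 fits called 734 up and 442 down of 10695, and 802 up and 477 down of 10702. Without WT replicate 1 the median was 0.12 and the calls 5 up and 2 down (1610 up and 1260 down of all 10649 genes). The 3 macrophage KO libraries had medians of -0.23, -0.24 and -0.22, while the WT libraries had 0.07, -0.05 and -0.03. The T cell libraries WT replicate 3 and KO replicate 3 were the highest of their groups for 27 and 24 of 34 genes.

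**Figure D4:**
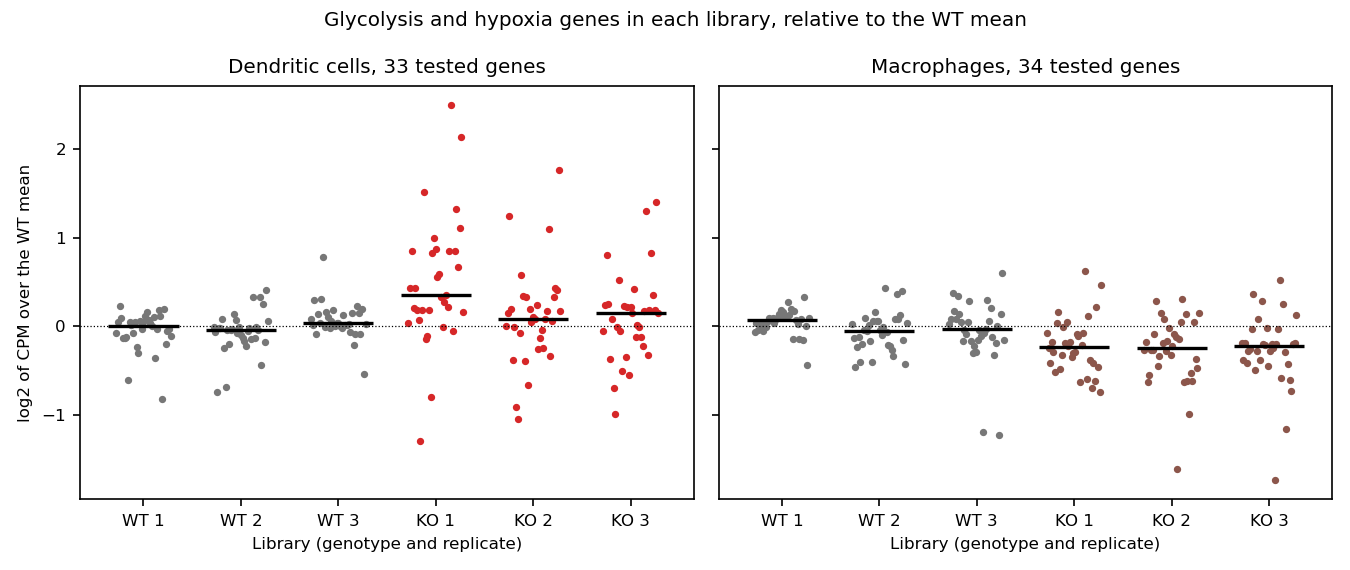
Each point is 1 tested gene in 1 library, as the log2 of its CPM over the mean of the 3 WT libraries, in dendritic cells (left, 33 genes) and macrophages (right, 34 genes); black bars are medians. The medians of the 3 macrophage KO libraries lie between -0.24 and -0.22, and among the dendritic cell KO libraries replicate 1 lies apart at 0.36.

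Markers of cell types also differed by genotype in the same libraries. In dendritic cells the 8 conventional dendritic cell markers summed to 11150 to 11943 CPM in WT and 14591 to 15338 in KO. Most of that difference was Fscn1, with means of 5313 CPM in WT and 8441 in KO, beside 4429 and 4785 for Ccr7. The 7 macrophage markers summed to 69.6 to 195 in WT and 48.8 to 62.1 in KO. The 6 T cell markers summed to 112 to 142 in WT and 219.8 to 239 in KO, nearly all of it Tcf7, with 4 of the 6 under 1 CPM. In macrophages the 6 stromal and mesothelial markers summed to 161 to 399.8 CPM in WT and 358 to 818 in KO, and the 4 platelet markers, nearly all Pf4, to 5475 to 5882.5 in WT and 4452 to 5313 in KO. The conventional dendritic cell markers, nearly all Itgax, summed to 229 to 319.7 CPM in WT macrophages and 353 to 436 in KO. Their part in the results was not tested.

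Macrophage calls depended on the fit. WT replicate 3 held the highest WT value of 42.0% and the lowest of 44.6% of all genes. Without it, edgeR called 2 genes up (Hk3 and Slc16a1) and 8 down (Gpi1, Tpi1, Eno2, Slc16a3, Pdk3, Vegfa, Bnip3 and Ankrd37), among 1489 genes up and 1257 down in all. A fit of all 24 libraries, which shares 1 estimate of spread across cell types, called Slc16a1 up and 8 genes down in macrophages. Over all 12249 genes that fit called 813 up and 942 down there. In that fit the B cell calls of Hk1, Vegfa and Slc16a1 and the T cell call of Hif1a were lost (adjusted p = 0.325, 0.388, 0.482 and 0.179), as were the dendritic cell calls of Ndrg1 and Pfkp (0.16 and 0.064), and its genes called down in dendritic cells were Hk3 and Pfkfb4. Without WT replicate 2 the one call in macrophages was Slc16a3, down, among 78 genes up and 70 down in all. With the replicate number as a block Vegfa alone was called, down (log2 fold change -0.90, adjusted p = 0.047), among 171 genes up and 94 down in all, against 59 and 36 without the block.

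Of the 4 genes of oxygen sensing, Hif1a rose in B cells and T cells, and Egln1, Egln3 and Vhl were called in no cell type. B cell Hif1a was at 187, 172 and 157 CPM in the KO libraries and 139, 137 and 128 CPM in the WT libraries. T cell Hif1a was at 809, 790.5 and 772 CPM in KO and 643, 670.4 and 671 in WT. In both, every KO library exceeded every WT library, with log2 fold changes of 0.35 ± 0.06 (adjusted p = 0.0059 by edgeR) and 0.26 ± 0.04 (adjusted p = 0.0032). The T cell call was lost without KO replicate 1 (adjusted p = 0.0512). Dendritic cell Hif1a was at 250.1, 244 and 235 CPM in KO and 231, 242 and 258 in WT, which overlapped, with a fold change of -0.003 ± 0.07. Macrophage Hif1a was at 1706, 1492 and 1577 CPM in KO and 1726, 1832 and 1829 in WT, with all KO libraries below WT at -0.16 ± 0.13 (adjusted p = 0.56). The higher KO level of B cells and T cells was thus not seen in macrophages, where Hif1a was most abundant. The difference of the KO effect between the 4 cell types had an adjusted p of 0.0076 in the fit of 24 libraries.

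Vhl leads HIF-1α to degradation. Dendritic cell Vhl was at 50.2, 49.9 and 51.6 CPM in KO and 46.3, 42.9 and 41 in WT, with KO above WT (0.22 ± 0.08, adjusted p = 0.086). Macrophage Vhl was at 14.6, 11.3 and 12.4 CPM in KO and 16.8, 14 and 18.6 in WT, which overlapped (-0.35 ± 0.16). B cell Vhl was at 7.32, 8.11 and 7.89 CPM in KO and 8.95, 8.28 and 9.16 in WT, all KO libraries being lower (-0.18 ± 0.13), and T cell Vhl at 18.1, 17 and 15.7 CPM in KO and 17.9, 17.6 and 16.4 in WT, with overlap. Only the dendritic cells had a fold change above 0, and the difference between cell types was called at an adjusted p of 0.042. Vhl was called up in dendritic cells without WT replicate 1 and down in macrophages in the fit of 24 libraries (adjusted p = 0.031 and 0.029). Egln1, the main oxygen sensor, had fold changes between -0.24 in macrophages and 0.28 in dendritic cells, and Egln3 between -0.38 and 0.97 in the same cell types, none called.

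**Figure D5:**
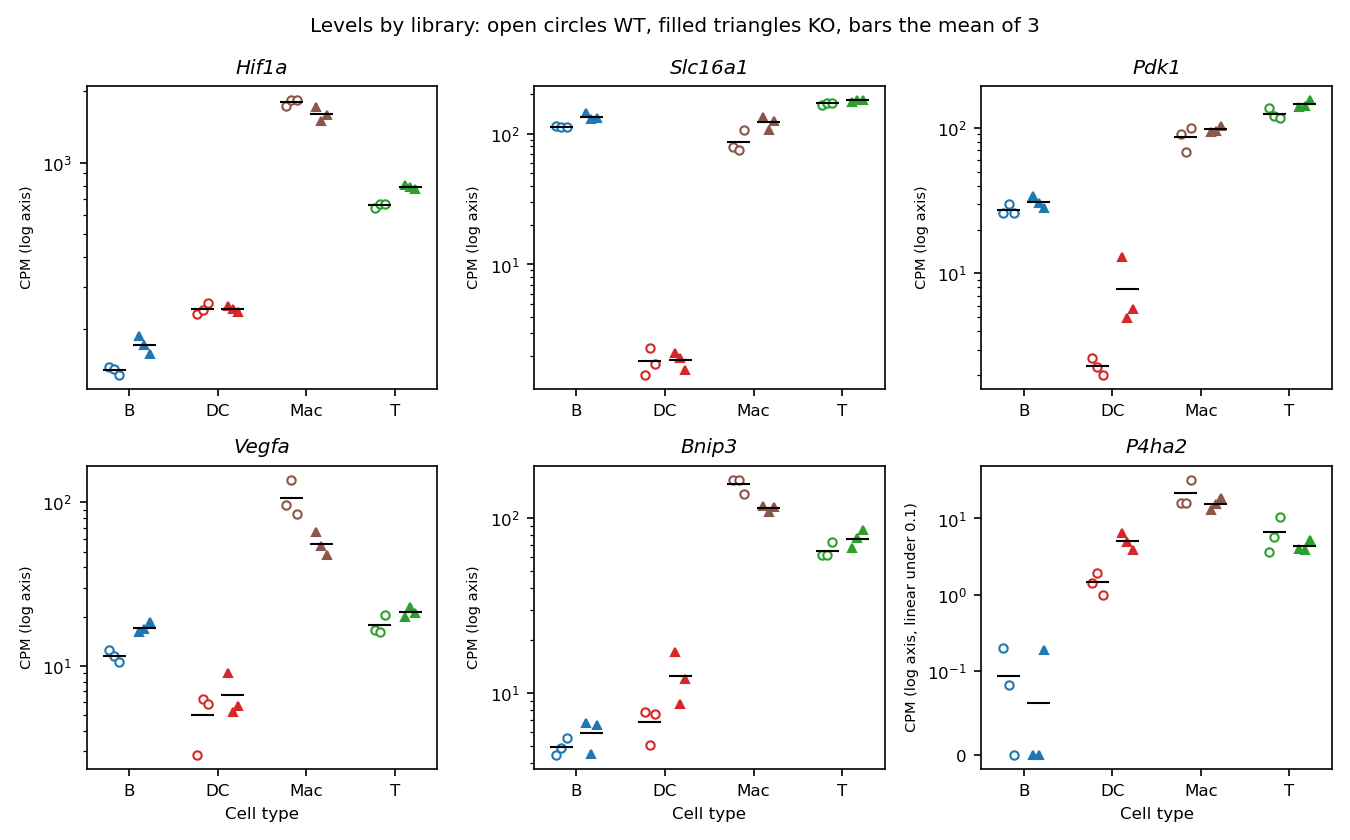
CPM of 6 genes in every library (log axis; for P4ha2 linear under 0.1), with WT as open circles, KO as filled triangles and the mean of 3 as a bar, for B cells, dendritic cells (DC), macrophages (Mac) and CD4 T cells. Hif1a lies higher in KO in B and T cells, Pdk1, Bnip3 and P4ha2 in dendritic cells, and Vegfa is higher in KO in B cells and lower in macrophages.

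Neither glucose transporter was called in any cell type or fit. B cell Slc2a1 was at 44.3, 43.7 and 48.7 CPM in KO and 45.1, 42.6 and 44.6 in WT, and T cell Slc2a1 at 195, 215 and 219.5 CPM in KO and 198, 209 and 230 in WT. Both overlapped. Dendritic cell Slc2a1 was at 24.2, 13.8 and 13.9 CPM in KO, where replicate 1 stood apart, and 16.4, 17.7 and 19.7 in WT. Macrophage Slc2a1 was at 350.5, 355 and 352 CPM in KO and 434, 394 and 455 in WT, all KO libraries being lower (-0.26 ± 0.11, adjusted p = 0.27). Slc2a3 was tested in B cells (-0.10 ± 0.10) and T cells (-0.25 ± 0.27), and was not called.

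Of the 12 genes of hexokinase and upper glycolysis, 1 of 11 tested fell in B cells, 1 of 12 fell in dendritic cells and none was called in macrophages or T cells. Of all genes tested, 1.11% were called down in B cells and 9.42% in dendritic cells. Hk1, the form bound to the outer mitochondrial membrane in most tissues, fell in B cells, with 103, 102 and 110.1 CPM in KO and 137, 128 and 139.6 in WT (-0.36 ± 0.06, adjusted p = 0.0025 by edgeR). All 3 KO libraries were below all WT libraries. Dendritic cell Hk1 was at 112, 98.1 and 104 CPM in KO and 89.8, 105 and 101.2 in WT, macrophage Hk1 at 192, 227 and 228 CPM in KO and 265, 207 and 348 in WT, and T cell Hk1 at 378, 404 and 389 CPM in KO and 359.6, 402 and 422 in WT, each with overlap. Hk2, the HIF-induced form, was at 88.1, 82.3 and 85 CPM in B cell KO libraries and 93, 91.1 and 92.6 in WT, all KO libraries being lower (-0.12 ± 0.06, adjusted p = 0.33). Dendritic cell Hk2 was at 22.5, 11.4 and 13.2 CPM in KO and 19.7, 18.1 and 26.5 in WT. It was called down there only when KO replicate 1, its highest KO library, was left out (log2 fold change -0.80, adjusted p = 0.0287). Macrophage Hk2 was at 307, 279.6 and 291 CPM in KO and 304, 260.4 and 329 in WT, and T cell Hk2 at 168, 178 and 164 CPM in KO and 162, 168 and 178 in WT, and both overlapped.

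Hk3 was called in neither myeloid cell type, but other fits did call it. Macrophage Hk3 was at 505, 549.5 and 579 CPM in KO and 449, 436 and 464 in WT (0.29 ± 0.11, adjusted p = 0.23), all KO libraries being higher. Dendritic cell Hk3 was at 7.28, 8.63 and 8.95 CPM in KO and 11.7, 11.1 and 30.5 in WT (-1.10 ± 0.42, adjusted p = 0.11), and WT replicate 3, at 30.5 CPM, was also the library with the most macrophage markers (195 CPM, against 69.6 and 72.3 in the other WT libraries). The part of those cells in the Hk3 value was not tested. Dendritic cell Hk3 was called down by DESeq2 (log2 fold change -1.10, adjusted p = 0.0046), with the replicate block (-0.99, 0.022) and in the fit of 24 libraries (-1.10, 0.0082). Macrophage Hk3 was called up without WT replicate 3 (adjusted p = 0.046). B cell Hk3 was at 0.157, 0.253 and 0.65 CPM in KO and 0.295, 0.334 and 0.195 in WT, and T cell Hk3 at 0.312, 0.488 and 0.172 CPM in KO and 0.0891, 0.261 and 0.177 in WT, too low to be tested. The difference between cell types was called at an adjusted p of 0.043.

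Gpi1, the isomerase after hexokinase, was at 1381, 1424 and 1372 CPM in macrophage KO libraries and 2021, 2058 and 1723 in WT, without overlap (-0.46 ± 0.13, adjusted p = 0.14). T cell Gpi1 was at 1025, 1056 and 1105 CPM in KO and 966, 954 and 1050.2 in WT. B cell Gpi1 was at 682, 719 and 722 CPM in KO and 677, 693 and 709 in WT, and dendritic cell Gpi1 at 611, 513 and 536 CPM in KO and 557, 522 and 535 in WT. These 3 overlapped, and the difference between cell types had an adjusted p of 0.0058.

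Pfkl, the liver form of phosphofructokinase, was at 148, 77.5 and 74.7 CPM in dendritic cell KO libraries and 52.3, 45.1 and 58.2 in WT, without overlap (0.95 ± 0.29, adjusted p = 0.066). KO replicate 1 was far above the other KO libraries, and with it left out Pfkl was called up (adjusted p = 0.016), as by DESeq2 (0.037), with the block (0.046) and in the fit of 24 libraries (0.0003). Macrophage Pfkl was at 760.3, 758 and 788 CPM in KO and 1013, 916 and 926 in WT, all KO libraries being lower (-0.29 ± 0.11, adjusted p = 0.24). B cell Pfkl was at 165, 158 and 165 CPM in KO and 167, 169 and 156 in WT, and T cell Pfkl at 435, 444 and 479 CPM in KO and 474, 485 and 494 in WT. The difference between cell types was called at an adjusted p of 0.0031. Pfkp, with a 7mer-A1 match, fell in dendritic cells, with 76.5, 62.9 and 58.2 CPM in KO and 85, 80.5 and 81.6 in WT (-0.32 ± 0.10, adjusted p = 0.041), a call lost when WT replicate 3 or KO replicate 2 or 3 was left out (adjusted p up to 0.167). Macrophage Pfkp was at 151, 150.1 and 131 CPM in KO and 183, 153 and 177 in WT, all KO libraries being lower (-0.23 ± 0.12, not called). B cell Pfkp was at 153, 145 and 187 CPM in KO and 159, 169.6 and 186 in WT, and T cell Pfkp at 754, 824 and 827 CPM in KO and 688, 772 and 905 in WT, with overlap. In dendritic cells the share of Pfkl in phosphofructokinase was 60.7 ± 5.98% (SD, n = 3) in KO and 40.3 ± 2.89% in WT, 20.4 percentage points apart and without overlap (exact permutation test, two-sided, p = 0.1, the smallest that 3 against 3 can give).

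Tpi1, triose phosphate isomerase, was at 1149.5, 1124 and 1039 CPM in macrophage KO libraries and 1603, 1469 and 1159 in WT (-0.33 ± 0.15, adjusted p = 0.31), and in dendritic cells at 283, 166 and 180 CPM in KO and 159.7, 145 and 159 in WT (0.44 ± 0.18, adjusted p = 0.12). KO was below WT in the former and above in the latter, without overlap in either. B cell Tpi1 was at 309.8, 279 and 303 CPM in KO and 272, 291 and 274 in WT, and T cell Tpi1 at 1126, 1144 and 1252 CPM in KO and 1161, 1145 and 1207 in WT. The difference between cell types had an adjusted p of 0.05, just under the threshold. Tpi1 was called up in dendritic cells by DESeq2, with the replicate block and in the fit of all 24 libraries (adjusted p = 0.028, 0.041 and 0.033), and down in macrophages without WT replicate 3 (0.022). Aldoa, the main aldolase, had fold changes from -0.16 in macrophages to 0.45 in dendritic cells and no call. Other fits called Aldoa up in dendritic cells (DESeq2, adjusted p = 0.0087, replicate block, 0.017, 24 libraries, 0.023, and without KO replicate 2, 0.049), in B cells with the block (0.0017) and in T cells without WT replicate 3 (0.036). Pfkfb3 ran from 0.01 in T cells to 0.25 in dendritic cells, where it was called up without WT replicate 2 alone (adjusted p = 0.039). Pfkfb4 ran from -0.59 in dendritic cells to 0.02 in B cells, and was called down in dendritic cells in the fit of 24 libraries and without WT replicate 1 (adjusted p = 0.0098 and 0.018). Pfkm lay between 0.06 and 0.20 and Aldoc between -0.25 and 0.47, with no call in any fit.

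Of the 6 genes of lower glycolysis, 1 of 5 tested rose in dendritic cells, where 12.2% of all genes were called up, and none was called elsewhere. Pgk1, which yields the first ATP of the pathway, rose in dendritic cells, with 112, 87.9 and 99.7 CPM in KO and 83.2, 66.5 and 73.8 in WT (0.42 ± 0.11, adjusted p = 0.019 by edgeR). The groups did not overlap, but the call was lost when WT replicate 3 or KO replicate 1 or 3 was left out (adjusted p up to 0.0908). B cell Pgk1 was at 168, 168 and 172 CPM in KO and 152, 164 and 157 in WT. Macrophage Pgk1 was at 1096, 1096 and 1013 CPM in KO and 1269.6, 1091 and 1138 in WT, and T cell Pgk1 at 563, 602 and 674 CPM in KO and 560.4, 561 and 626 in WT. None of these 3 was called. Gapdh, often used as a reference gene, was called nowhere and stood at 1353, 1332 and 1513 CPM in B cell KO and 1366, 1394 and 1422 in WT libraries. T cell Gapdh was at 1849.5, 1950.5 and 2041 CPM in KO and 1891, 1978 and 2105 in WT. Dendritic cell Gapdh was at 1024, 739.6 and 774 CPM in KO and 756, 638 and 699.5 in WT (0.28 ± 0.12, adjusted p = 0.13), and macrophage Gapdh at 2862, 2997 and 2875 CPM in KO and 3915, 3405 and 3146 in WT (-0.24 ± 0.14, adjusted p = 0.42). The macrophage KO libraries were all below WT, so a ratio to Gapdh would differ by genotype there. Pgam1 and Pkm were called in no fit, with fold changes of -0.14 to 0.01 and -0.16 to 0.09. Eno2 had fold changes of -1.22 in macrophages to 0.01 in T cells. Macrophage Eno2 was at 6.16, 3.12 and 2.86 CPM in KO and 11.5, 12.9 and 4.18 in WT, where WT replicate 3 fell among the KO libraries. It was not called (adjusted p = 0.24), but was called down in the fit of 24 libraries and without WT replicate 3 (adjusted p = 0.012 in both).

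Of the 5 genes of lactate and pyruvate fate, 1 of 4 tested rose in B cells, 1 of 5 in dendritic cells and none in macrophages or T cells. The shares of all genes called up were 2.09% in B cells and 12.2% in dendritic cells. Slc16a1 rose in B cells, with 143, 128 and 132 CPM in KO and 114, 113 and 111 in WT (0.25 ± 0.06, adjusted p = 0.025 by edgeR). No KO library overlapped WT, yet the call was lost in 5 of the 6 fits that left out a library (adjusted p up to 0.124) and kept only without KO replicate 3. Macrophage Slc16a1 was at 133, 107 and 124 CPM in KO and 78.5, 74.5 and 107 in WT (0.51 ± 0.17, adjusted p = 0.19). T cell Slc16a1 was at 175, 181 and 181 CPM in KO and 166, 172 and 171 in WT (0.07 ± 0.04, adjusted p = 0.37). In these 3 cell types every KO library was above every WT library, while dendritic cell Slc16a1 was at 2.12, 1.92 and 1.56 CPM in KO and 1.42, 2.29 and 1.74 in WT, low and with overlap. A difference of the Slc16a1 effect between cell types was not called (adjusted p = 0.19).

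Macrophage Slc16a3 was at 393, 383 and 397 CPM in KO and 667, 491 and 619.5 in WT, all KO libraries being lower (-0.58 ± 0.14, adjusted p = 0.11). Dendritic cell Slc16a3 was at 73.4, 46 and 46 CPM in KO and 39.9, 37.3 and 45.2 in WT (0.43 ± 0.18, adjusted p = 0.11), T cell Slc16a3 at 357, 336 and 394 CPM in KO and 325, 323 and 383 in WT, and B cell Slc16a3 at 0.787, 0.338 and 0.929 CPM in KO and 0.0983, 0.585 and 0.487 in WT. The difference between cell types was called at an adjusted p of 0.012. Slc16a1 made up 22.8 ± 1.69% (SD, n = 3) of the pair in macrophage KO libraries and 12.3 ± 2.04% in WT, 10.5 percentage points apart without overlap (exact permutation test, two-sided, p = 0.1).

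Among the genes with a full seed match Pdk1 had the largest fold change. Dendritic cell Pdk1 was at 13, 4.93 and 5.68 CPM in KO and 2.61, 2.29 and 1.99 in WT (1.77 ± 0.38, adjusted p = 0.0091 by edgeR), on 16 to 98 counts per library. All KO libraries were above WT, replicate 1 by the most, and the call held in each of the 6 fits that left out a library (adjusted p of 0.00675 to 0.0469). T cell Pdk1 was at 138, 140.1 and 156 CPM in KO and 137, 120.1 and 117 in WT, also without overlap (0.21 ± 0.07, adjusted p = 0.12). B cell Pdk1 was at 34.2, 30.5 and 28.2 CPM in KO and 25.9, 30 and 26.1 in WT (0.18 ± 0.09), and macrophage Pdk1 at 94.1, 95.1 and 103 CPM in KO and 90.7, 68.6 and 100.3 in WT (0.19 ± 0.15), with overlap and no call. The fold change was above 0 in all 4 cell types, and its difference between them was called at an adjusted p of 0.018. Pdk3, a kinase of the same step without a seed match, had fold changes of -0.23 in dendritic cells, -0.40 in macrophages, -0.07 in B cells and 0.06 in T cells, none called. In macrophages Pdk3 was called down in the fit of 24 libraries and without WT replicate 3 (adjusted p = 0.0056 and 0.025). The share of Pdk1 in the pair was 19.0 ± 6.65% in dendritic cell KO libraries and 5.82 ± 0.372% in WT (exact permutation test, two-sided, p = 0.1).

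Ldha, lactate dehydrogenase A, was called in no cell type. B cell Ldha was at 1070.5, 1011 and 1066 CPM in KO and 947, 1015 and 976 in WT (0.10 ± 0.05), and T cell Ldha at 2727, 2849 and 2963 CPM in KO and 2649, 2665 and 2971 in WT (0.04 ± 0.05). Dendritic cell Ldha was at 295, 195 and 211 CPM in KO and 247, 209 and 234 in WT, and macrophage Ldha at 2675, 2922 and 2766 CPM in KO and 3235, 2439.9 and 2762 in WT. Genotypes overlapped in all 4, and their fold changes lay between 0.01 and 0.10.

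Of the 7 other hypoxia-induced genes, 1 of 5 tested rose in B cells, 3 of 6 in dendritic cells and none of 7 in macrophages or T cells. Of all genes tested, 2.09% were called up in B cells and 12.2% in dendritic cells. Vegfa, the angiogenic growth factor, had the smallest p of the set for a difference between cell types (adjusted p = 0.0019). It rose in B cells, with 16.1, 16.8 and 18.6 CPM in KO and 12.5, 11.5 and 10.6 in WT (0.57 ± 0.11, adjusted p = 0.0075 by edgeR). Macrophage Vegfa was at 65.8, 53.8 and 47.7 CPM in KO and 96.6, 138 and 85.5 in WT, all KO libraries being lower (-0.92 ± 0.20, adjusted p = 0.089, and 0.047 with the replicate block). T cell Vegfa was at 19.9, 23 and 21.1 CPM in KO and 16.6, 16.1 and 20.6 in WT, and dendritic cell Vegfa at 9, 5.2 and 5.68 CPM in KO and 2.84, 6.28 and 5.86 in WT, with overlap and no call. Vegfa carries no match to the miR-155-5p seed in the UTR searched.

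Bnip3, a mitophagy receptor, rose in dendritic cells, with 17.1, 8.63 and 12.1 CPM in KO and 7.82, 5.07 and 7.6 in WT (0.88 ± 0.25, adjusted p = 0.032). The groups did not overlap, but the call was kept only without KO replicate 2 among the 6 fits that left out a library (adjusted p up to 0.135). Macrophage Bnip3 was at 117, 108 and 116 CPM in KO and 165, 166 and 137 in WT, all KO libraries being lower (-0.43 ± 0.11, adjusted p = 0.12). B cell Bnip3 was at 6.77, 4.48 and 6.59 CPM in KO and 4.42, 4.85 and 5.56 in WT, and T cell Bnip3 at 67.2, 76.7 and 85.2 CPM in KO and 61.8, 61.4 and 72.5 in WT. The difference between cell types was called at an adjusted p of 0.0063.

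P4ha2 and P4ha1 encode the catalytic subunits of collagen prolyl hydroxylase. P4ha2 rose in dendritic cells from a low level, with 6.36, 4.93 and 3.84 CPM in KO and 1.42, 1.93 and 0.997 in WT on 8 to 48 counts per library (1.79 ± 0.31, adjusted p = 0.0023 by edgeR), a call kept whichever library was left out. Macrophage P4ha2 was at 12.8, 15.4 and 18.7 CPM in KO and 15.8, 15.9 and 32.4 in WT, T cell P4ha2 at 3.95, 3.91 and 5.25 CPM in KO and 3.65, 5.75 and 10.6 in WT, and B cell P4ha2 was at most 0.197 CPM. The dendritic cells were the only cell type in which P4ha2 was called, and its difference between cell types had an adjusted p of 0.031. P4ha1 in dendritic cells was at 31.5, 19.4 and 16.5 CPM in KO and 14, 12.9 and 16.7 in WT (0.63 ± 0.22, adjusted p = 0.07), and in macrophages at 233, 249.4 and 279 CPM in KO and 321, 288 and 352 in WT (-0.32 ± 0.13, adjusted p = 0.26). B cell P4ha1 was at 16.2, 12.4 and 13.1 CPM in KO and 9.44, 11.2 and 11.6 in WT, and T cell P4ha1 at 109, 109.5 and 120.3 CPM in KO and 108, 112 and 106 in WT. All KO libraries of P4ha1 were above WT in B cells and below it in macrophages, those of dendritic cells and T cells overlapped, and other fits called it up in dendritic cells (DESeq2, adjusted p = 0.035, and 24 libraries, 0.013) and in B cells (replicate block, adjusted p = 0.019). The effect on P4ha1 differed between cell types at an adjusted p of 0.019.

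Ndrg1, a stress-induced gene, rose in dendritic cells, with 55.3, 47 and 44.2 CPM in KO and 30.3, 41.2 and 32.6 in WT (0.49 ± 0.13, adjusted p = 0.021 by edgeR), a call lost when WT replicate 3 or KO replicate 1 or 2 was left out (adjusted p up to 0.0968). T cell Ndrg1 was at 26, 26.3 and 32.3 CPM in KO and 20.4, 21.8 and 26.7 in WT, macrophage Ndrg1 at 11.4, 10.1 and 5.93 CPM in KO and 12.3, 12.9 and 4.18 in WT, and B cell Ndrg1 at most 0.836 CPM. Macrophage Ankrd37 was at 9.58, 9.58 and 9.66 CPM in KO and 13.3, 16.1 and 14.8 in WT (-0.60 ± 0.13, adjusted p = 0.083), and dendritic cell Ankrd37, too low for the filter, at 2.78, 0.959 and 0.71 CPM in KO and 0.237, 0.241 and 0.374 in WT. KO was all below WT in the former and all above in the latter. Without the filter Ankrd37 was called up in dendritic cells (log2 fold change 2.34, adjusted p = 0.013), as in the fit of 24 libraries (2.36, 0.0028). In macrophages it was called down in the fit of 24 libraries and without WT replicate 3 (adjusted p = 0.039 and 0.022). B cell Ankrd37 was at 4.64, 2.45 and 3.53 CPM in KO and 3.15, 2.84 and 4 in WT, and T cell Ankrd37 at 12.5, 13.8 and 12.6 CPM in KO and 14.7, 14.5 and 15.4 in WT. Its difference between cell types was called at an adjusted p of 0.0065. Mxi1, with a 7mer-A1, was above 0 in all 4 cell types (0.33 in B cells, 0.37 in T cells, 0.16 in dendritic cells and 0.28 in macrophages) with no KO library overlapping WT in any, and was called in none (adjusted p of 0.13 to 0.39).

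Whether the KO effect differed between the 4 cell types was asked in 1 fit of all 24 libraries, which shares 1 estimate of spread across cell types. With such a shared spread, 813 genes were called up and 942 down in macrophages, against 59 and 36 in the macrophage fit. The p-values of the difference thus rest on a spread that can differ from the macrophages' own. The difference was called for 13 of 35 tested genes (37.1%), where 12.6% of all 12249 genes tested were called. In 10 of them (Vhl, Gpi1, Pfkl, Tpi1, Slc16a3, Vegfa, Bnip3, Ankrd37, P4ha1 and P4ha2) the mean of the KO libraries lay below WT in macrophages and above it in dendritic cells. Hif1a separated B and T cells from macrophages, Hk3 lay lower in dendritic cells and higher in macrophages, and Pdk1 had its largest fold change in dendritic cells. The call was kept in all 28 alternatives for 7 of the 13, namely Hif1a, Gpi1, Pfkl, Slc16a3, Vegfa, Bnip3 and Ankrd37. It was lost in most fits that left out 1 library for Tpi1 (21 of 24), Hk3 (18) and Vhl (16), in 5 for P4ha2, in 2 for Pdk1 (dendritic cell KO replicate 1 and WT replicate 3) and in 1 for P4ha1 (macrophage KO replicate 1). Leaving out macrophage WT replicate 3 raised the count to 22, and the count over all genes in that fit is not given here.

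The genes that rose in dendritic cells were read for the HIF core motif in the 250 bases before their RefSeq start site. The motif was searched as ACGTG and as GCGTG on both strands, so that the palindrome CACGTG counts as 2 matches of ACGTG. RefSeq promoters (GRCm38.p6) were matched by symbol for 34 of the 36 genes, and Ndrg1 and Slc2a3 are named only. Of the 34, 22 (64.7%) held ACGTG in at least 1 of their promoters, against 20.5% of the 15656 genes of the files with such an entry. Either form was held by 30 (88.2%), against 48.8%. Per promoter, 52.0% of 50 held ACGTG, against 18.1% of 19146, and 78.0% held either form, against 45.4%. The set is defined by the pathway, many of whose genes are textbook HIF targets, so these shares describe it and say nothing of binding in these cells. Pfkp, called down in dendritic cells, held 3 matches of GCGTG and is not shown, so the motif was not limited to the genes that rose. The promoters of 4 genes called up in dendritic cells are shown, 5′ to 3′ on the gene's strand and ending at the base before the start. Matches are in capitals (CACGT and CACGC are the same motifs read on the other strand).

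Pgk1, chrX:106186850-106187099, plus strand: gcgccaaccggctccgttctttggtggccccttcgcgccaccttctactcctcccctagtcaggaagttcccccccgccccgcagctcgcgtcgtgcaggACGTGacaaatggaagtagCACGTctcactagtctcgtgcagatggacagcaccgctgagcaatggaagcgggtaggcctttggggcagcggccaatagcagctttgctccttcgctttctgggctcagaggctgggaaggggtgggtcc
Pdk1, chr2:71872974-71873223, plus strand: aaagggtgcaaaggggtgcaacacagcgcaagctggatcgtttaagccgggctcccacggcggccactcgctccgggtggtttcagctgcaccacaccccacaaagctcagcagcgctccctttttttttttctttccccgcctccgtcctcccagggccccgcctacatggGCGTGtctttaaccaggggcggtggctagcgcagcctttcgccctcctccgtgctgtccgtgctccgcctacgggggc
Bnip3, chr7:138909507-138909756, minus strand: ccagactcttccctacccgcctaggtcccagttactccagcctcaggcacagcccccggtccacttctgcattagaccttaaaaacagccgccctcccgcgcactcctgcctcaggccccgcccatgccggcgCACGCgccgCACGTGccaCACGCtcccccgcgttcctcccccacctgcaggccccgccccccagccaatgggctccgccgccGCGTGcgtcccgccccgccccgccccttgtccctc
P4ha2, chr11:54100674-54100923, plus strand: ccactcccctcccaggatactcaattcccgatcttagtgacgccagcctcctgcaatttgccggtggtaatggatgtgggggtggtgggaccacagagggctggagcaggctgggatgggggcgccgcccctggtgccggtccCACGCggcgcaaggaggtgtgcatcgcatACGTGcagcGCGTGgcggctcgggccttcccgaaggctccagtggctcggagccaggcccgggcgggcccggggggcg

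Pgk1 held 2 matches of ACGTG and P4ha2 held 1 with 2 of GCGTG. Bnip3 held a CACGTG palindrome and 3 matches of GCGTG, and Pdk1 a single GCGTG, while its other RefSeq entry held none. All 4 rose in dendritic cell KO libraries. In macrophages the same genes stood at log2 fold changes of -0.11 (Pgk1), 0.19 (Pdk1), -0.43 (Bnip3) and -0.44 (P4ha2), none called. HIF-1α protein was not measured, and a part of HIF in these changes was not tested.

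The genes with an 8mer or 7mer site, 6 in all, were each tested in the 4 cell types. In B cells 2 of 6 were called up and none down, with a median log2 fold change of 0.22, beside 0.02 over the 24 tested genes without such a site. T cells gave 1 up, and medians of 0.24 and 0.01. Dendritic cells gave 1 up and 1 down, with medians of 0.10 and 0.25, and macrophages none, with medians of 0.04 and -0.28. Of all genes tested, 2.09% were called up and 1.11% down in B cells, 1.35% and 0.798% in T cells, and 12.2% and 9.42% in dendritic cells. In macrophages these shares were 0.55% and 0.336%. These 6 genes are too few for more than a description.

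Of 77 further genes of the same pathways, 57 to 64 were tested per cell type. In B cells 2 of 57 rose and none fell (2.09% of all genes were called up and 1.11% down). They were Adm, the hypoxia-induced peptide adrenomedullin (0.67 ± 0.17, adjusted p = 0.046 by edgeR), and Pdhx, a subunit of pyruvate dehydrogenase (0.33 ± 0.07, adjusted p = 0.019). In macrophages 2 of 64 rose and 1 fell (0.55% of all genes were called up and 0.336% down). Adm rose there too, with 10.7, 13.8 and 11.6 CPM in KO and 4.15, 2.91 and 5.3 in WT (1.57 ± 0.24, adjusted p = 0.046), in the same libraries in which Vegfa stood below WT. Pcx, pyruvate carboxylase, rose (1.10 ± 0.16, adjusted p = 0.043) and Slc2a6, a glucose transporter family gene of activated myeloid cells, fell (-0.89 ± 0.14, adjusted p = 0.049). In T cells 1 of 64 rose, the chemokine receptor Cxcr4 (0.85 ± 0.18, adjusted p = 0.033), and none fell. There 1.35% of all genes were called up and 0.798% down.

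In dendritic cells 8 of 61 rose and 5 fell, near the shares of all genes called there. Eno3, the muscle enolase, was at 867, 832 and 883 CPM in KO and 563, 495 and 494 in WT (0.73 ± 0.08, adjusted p = 0.00019). Pygl, liver glycogen phosphorylase, was at 76.5, 62.5 and 72.4 CPM in KO and 21.4, 20.5 and 36.1 in WT (1.44 ± 0.20, adjusted p = 0.0013), and Cxcr4 at 469.8, 495 and 502 CPM in KO and 318, 334 and 377 in WT (0.51 ± 0.08, adjusted p = 0.0018). Those that fell included Bhlhe40, a transcriptional repressor, at 423, 399 and 408 CPM in KO and 515, 526 and 531 in WT (-0.35 ± 0.07, adjusted p = 0.0048). Mpc2 and Mpc1, which together form the mitochondrial pyruvate carrier, both fell, with log2 fold changes of -0.62 ± 0.17 (adjusted p = 0.025) and -0.44 ± 0.13 (adjusted p = 0.03). Pdk1, which restrains the entry of pyruvate into the citric acid cycle, rose in the same libraries from a WT mean of 2.3 CPM. Pdk3, a kinase of the same step, had a WT mean of 35.4 CPM there and was not called. Of 10 tested further genes of pyruvate entry to mitochondria, 1 rose and 2 fell. An effect on the entry of pyruvate was not tested. The difference between cell types was called for 9 of 68 of these genes, near the 12.6% of all genes called.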

How the data were processed

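Messenger RNA was measured in 24 libraries of 8 groups, taken from the sample titles. The values deposited by the authors are raw counts, whole numbers with 1 row per gene symbol. cutadapt, STAR and the build mm9 appear in the submitters' processing notes. The counting tool is not given in the sources used here, nor is its strand setting. Rows that name no gene were left out, and the one for reads in no feature held 51.4 to 61.1% of a library's counts.

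KO and WT were compared within each cell type by edgeR 4.0.16 (R 4.3.3, TMM, filterByExpr, robust quasi-likelihood F test, two-sided), and a Benjamini-Hochberg adjusted p below 0.05 made a call. SE is the absolute log2 fold change over the square root of F. The difference of the KO effect between cell types was tested over 24 libraries with 8 group means, and pairs of WT cell types over 12 WT libraries with at least a 2-fold difference. Isozyme shares used counts per kb of coding sequence (GENCODE M21). Seed matches were looked for in each gene's longest 3′ UTR of that annotation. The alternatives were RLE size factors, 2 other filters, DESeq2 1.42.0, a replicate block, a fit of all 24 libraries and leaving out each library. On simulated counts the edgeR fit recovered 94% of 2-fold and 81% of 1.5-fold changes in B cells, 91.9% and 50.5% in dendritic cells, 68% and 6.06% in macrophages and 88.8% and 76% in T cells.

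The titles number the replicates 1 to 3 in every group. KO and WT libraries of the same number deviated together in macrophages (correlations of 0.12, 0.23 and 0.31), so the number may mark a pairing there. The main fits, those of macrophages included, did not use it. It entered only through the replicate block among the alternatives. In the other cell types not every pair exceeded 0.1.

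The 36 genes, the 77 further pathway genes, the 12 marker lists and the rule for named genes were chosen with earlier results of these data known. Each gene called in a KO comparison or between cell types was given in full, with Hif1a, Slc2a1, Hk2, Ldha and Gapdh in any case. Up to 3 further pathway genes per direction and cell type were named by smallest p, and in WT pairs the largest difference of a role, except against groups with too few counts for a fold. Eno2 in macrophages was added after its values were seen, as was Adm in the sentence that sets it beside Vegfa. GRCm38 sequences were used for description only, since the files are on mm9.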

Additional observations from a re-analysis of the deposited data

Results flagged for a closer look

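For 13 genes the KO effect differed between the 4 cell types by the test of that difference itself (edgeR's quasi-likelihood test over 24 libraries, Benjamini-Hochberg adjusted over 12249 genes). That test shares 1 estimate of spread across cell types, which can differ from the macrophages' own. The adjusted p was 0.0019 for Vegfa, 0.0031 for Pfkl, 0.0058 for Gpi1, 0.0063 for Bnip3, 0.0065 for Ankrd37 and 0.0076 for Hif1a. It was 0.012 for Slc16a3, 0.018 for Pdk1, 0.019 for P4ha1, 0.031 for P4ha2, 0.042 for Vhl, 0.043 for Hk3 and 0.05 for Tpi1. The log2 fold changes of Vegfa were 0.57 in B cells, 0.26 in T cells, 0.41 in dendritic cells and -0.92 in macrophages. Those of Pfkl were -0.02, -0.10, 0.95 and -0.29 in the same order, and those of Hif1a 0.35, 0.26, -0.003 and -0.16.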

How the results depend on the processing

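No count or called gene changed its direction under an alternative. Counts that moved by more than 1.5 times are these. With the replicate block B cells had 5 genes up, dendritic cells 8 up and 2 down, and macrophages 1 down, and with the fit of all 24 libraries B cells had 1 up and 0 down, dendritic cells 9 up and 2 down, macrophages 1 up and 8 down, and T cells 0 up. DESeq2 called 9 up and 2 down in dendritic cells and 4 down in macrophages. Over all genes DESeq2 called 1159 up and 716 down of 10578 in dendritic cells. The block called 653 up and 607 down of 10151 in B cells and 1304 and 962 of 10536 in dendritic cells. Of 12249 genes the fit of all 24 libraries called 67 up and 14 down in B cells, and 1218 and 1144 in dendritic cells. In T cells it called 42 up and 21 down. Leaving out 1 library gave 2 to 3 up in B cells, 3 to 5 up and 0 to 2 down in dendritic cells, 0 to 2 up and 0 to 8 down in macrophages and 0 to 5 up in T cells, and 9 to 22 genes that differed between cell types. Without macrophage WT replicate 3 the last count was 22, and its share over all genes is not given here. For KO against WT, leaving out 1 library called 100 to 274 of all genes up in B cells and 22 to 321 in T cells. In dendritic cells it called 734 to 1610 up and 442 to 1260 down, and in macrophages 0 to 1489 up and 0 to 1257 down. The block changed no other call in macrophages and none in T cells (1 up). RLE size factors and both other filters moved none of these counts by more than 1.5 times, and the WT pairs kept theirs within it in every fit. Of 11 calls of single genes, 3 (Hif1a in B cells, Pdk1 and P4ha2 in dendritic cells) were kept in all 12 alternatives. Without length, 62 of 160 isozyme shares moved by more than 1 SD, by up to 12.7 percentage points. Outside macrophages the replicate numbers were not shown to pair libraries, with correlations as low as -0.18. Macrophage depth was the highest, yet simulated 1.5-fold changes were rarely recovered there, so a missing call in macrophages shows little.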

Other observations

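Among the further pathway genes, the KO effect differed between cell types for 9 of 68, near the 12.6% of all genes called, and the 9 are named here because they were called (edgeR's quasi-likelihood test over 24 libraries, Benjamini-Hochberg adjusted). The smallest p was that of Pcx, pyruvate carboxylase (adjusted p = 2e-04), with log2 fold changes of 1.10 in macrophages and -0.54 in dendritic cells, -0.15 in B cells and -0.11 in T cells. It stood at 22, 29.7 and 23 CPM in macrophage KO libraries and 11.5, 13.3 and 10.3 in WT, without overlap. Slc2a6 (adjusted p = 0.00048) was at 59.2, 72.3 and 55.3 CPM in macrophage KO libraries and 109, 109 and 134 in WT, also without overlap, and its fold changes elsewhere lay between -0.07 and 0.24. Mif, a cytokine gene induced by hypoxia (adjusted p = 0.0027), rose in dendritic cells from 8.06, 7 and 9.34 CPM in WT to 31.8, 15.8 and 14.3 in KO, where replicate 1 stood apart. G6pdx, which opens the pentose phosphate pathway (adjusted p = 0.022), was at 292, 292 and 283 CPM in macrophage KO libraries and 375, 320.3 and 414 in WT (-0.34 ± 0.13), and at 132, 141 and 128 in T cell KO libraries and 119, 118.2 and 125 in WT (0.14 ± 0.05), called in neither. The other 5 were Pygl (adjusted p = 0.0063), Stc2 (0.032), Loxl2 (0.032), Ugp2 (0.037) and Eno3 (0.045).

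Loxl2, a collagen-modifying enzyme, was at 0 in all 6 KO libraries of B cells and T cells and between 0.39 and 1.18 CPM in their WT libraries. These are at most 13 counts per library, and it was not tested there.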
